A study of Rattus norvegicus with 16 samples.

Results

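Hypoxia-induced genes are described here through 10 members, Car9, Ndufa4l2, Slc2a1, Hk2, Pfkfb3, Pdk1, Bnip3, Egln3, Adm and Ankrd37, taken by symbol from a table of 14476 genes. All 10 symbols were present, and all 10 passed the filter on low counts that left 12857 genes to test. The members were chosen by name with earlier results of these data known, and which measured values guided the choice is not recorded. For that reason the adjusted p-values below describe single genes and support nothing about the list as a whole.

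Cells sense oxygen through hypoxia-inducible factors (HIFs), transcription factors whose alpha subunit is hydroxylated by prolyl hydroxylases and destroyed with the help of the von Hippel-Lindau protein when oxygen is plentiful. When oxygen is scarce the alpha subunit pairs with Arnt, binds short DNA elements and raises genes for glucose uptake, glycolysis, pH control, mitochondrial restraint and vessel growth. A fracture interrupts local vessels, and this pathway is known for coupling vessel growth to bone formation. Several of these genes are also used by tissues for other ends, skeletal muscle and cartilage among them.

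The study set an osteotomy holding a polymethyl methacrylate (PMMA) cement spacer, as in the Masquelet technique of bone repair, against an osteotomy left empty on the other side of the same animal. Each of 4 Sprague-Dawley rats carried both plated osteotomies, and tissue was taken at 4 weeks, so time, strain, surgery and plate were shared by all groups. Every rat gave 1 library to each of 4 groups. They were the membrane induced around the spacer (IM), the tissue of the empty osteotomy, named pre-fibrous non-union in the labels (PFNU), bone next to the spacer (PMMA bone) and bone next to the empty defect (BNED). The labels give neither age nor sex, and no intact bone was among the samples.

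Libraries held 40472228 to 76815879 counts, and levels are CPM, counts scaled to a common library total, on library sizes scaled by TMM. Each sample was a piece of mixed tissue. Skeletal muscle markers, 12 of 12 in the table, summed to 19372 to 276147 CPM in IM and 49297 to 156968 CPM in PFNU, and to 1482 to 9253 CPM in PMMA bone and 3043 to 31517 CPM in BNED. Single markers did not all follow the sum. Of the 12, edgeR called 9 higher and 1 lower in IM over PMMA bone, and 8 higher and 0 lower in PFNU over BNED. In IM over PFNU 0 were called higher and 2 lower. Erythroid markers, 10 of 11 in the table, summed to 2312 to 7390 CPM in the PMMA bone of rats 2 to 4 and 44479 CPM in that of rat 1, against 20790 to 41302 CPM in BNED. The PMMA bone library of rat 1 thus stood apart from the other 3, and no marker of either list was at 0 in any group. Osteoblast and osteocyte markers, 8 of 8 in the table, summed to 7629 to 9278 CPM in PMMA bone and 2348 to 6572 CPM in BNED, and to 71.4 to 3583 CPM in IM and 322 to 2200 CPM in PFNU. In such bulk samples fewer cells of a type and less RNA per cell cannot be told apart.

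The letters through which HIFs bind are short, with ACGTG or GCGTG at their core, and the promoters of 4 members are printed to show the range from no match to the most. Car9, Ndufa4l2 and Bnip3 are called in comparisons below, and Ankrd37, which is called in none, had the most matches. Hk2, Egln3 and Adm, which are called below as well, had no match and are not printed. Each runs from 250 bases before the gene's first base to 50 bases from it on, 300 bases in gene orientation, from RefSeq on build GRCr8. That build is not the one of the counts. Capitals mark every ACGTG or GCGTG on either strand, the other strand reading CACGT or CACGC.
Car9: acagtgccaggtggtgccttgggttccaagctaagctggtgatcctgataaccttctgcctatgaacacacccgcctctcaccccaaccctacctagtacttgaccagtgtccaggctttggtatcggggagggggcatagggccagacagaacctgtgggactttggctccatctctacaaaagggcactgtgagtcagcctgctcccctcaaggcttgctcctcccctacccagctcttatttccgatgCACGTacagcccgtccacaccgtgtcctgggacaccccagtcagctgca
Ndufa4l2: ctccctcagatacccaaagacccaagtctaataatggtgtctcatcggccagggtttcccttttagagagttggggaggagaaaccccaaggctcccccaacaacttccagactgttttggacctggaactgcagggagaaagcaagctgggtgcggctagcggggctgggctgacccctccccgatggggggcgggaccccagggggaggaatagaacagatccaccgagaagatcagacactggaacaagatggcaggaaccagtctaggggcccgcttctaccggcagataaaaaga
Bnip3: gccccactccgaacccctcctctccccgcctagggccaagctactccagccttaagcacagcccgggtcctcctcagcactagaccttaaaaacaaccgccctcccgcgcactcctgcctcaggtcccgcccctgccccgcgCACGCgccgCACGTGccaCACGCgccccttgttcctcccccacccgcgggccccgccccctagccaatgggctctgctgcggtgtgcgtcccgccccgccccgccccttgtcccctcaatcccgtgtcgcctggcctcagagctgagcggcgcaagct
Ankrd37: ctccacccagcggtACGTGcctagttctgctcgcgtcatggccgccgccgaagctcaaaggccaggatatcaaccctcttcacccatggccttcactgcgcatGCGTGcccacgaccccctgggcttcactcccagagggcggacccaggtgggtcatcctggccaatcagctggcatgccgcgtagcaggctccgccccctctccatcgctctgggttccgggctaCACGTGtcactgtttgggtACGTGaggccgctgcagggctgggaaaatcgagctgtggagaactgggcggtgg
The windows are chr5:62558774-62559073 on the plus strand for Car9, chr7:65241919-65242218 on the plus strand for Ndufa4l2, chr1:203154913-203155212 on the minus strand for Bnip3 and chr16:53001257-53001556 on the plus strand for Ankrd37. The single match of Car9 lies 1 to 5 bases past the gene's first base, counted as 0. Ankrd37 had 5 matches and Bnip3 4, in both cases counting the palindrome CACGTG once on each strand, and Ndufa4l2 had none. Over all 10 members, 6 held at least 1 match of either motif, namely Car9, Slc2a1, Pfkfb3, Pdk1, Bnip3 and Ankrd37. That is 60.0%, beside 59.1% of the 9556 tested genes with a promoter in the table and 41.6% of all 33469 promoters. By motif, the shares were 60.0% for ACGTG and 40.0% for GCGTG among the members. Among the same tested genes they were 24.5% and 47.4%, and among all promoters 19.3% and 29.7%. The letters are rich in G and C, and the median share of these bases was 61.0% in the members and 60.3% in the tested genes. A match is a description of the letters and shows no binding, and windows without one say nothing of the factor.

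Bone beside the spacer was set against bone beside the empty defect to see how the spacer's side differs in the host bone. Car9 and Ndufa4l2 were the members that rose, each by about a log2 fold change of 2. Car9 encodes a membrane carbonic anhydrase that exports acid equivalents from cells living on glycolysis. It had 5.63, 14.3, 7.53 and 15.98 CPM in the PMMA bone of rats 1 to 4, against 1.52, 1.44, 2.00 and 6.08 CPM in the BNED of the same rats. Every rat was higher on the spacer side, but the BNED of rat 4 reached above the PMMA bone of rat 1, so the groups overlapped. The log2 fold change was 1.98 (SE 0.48, adjusted p = 0.0341 by edgeR's quasi-likelihood test over all genes).

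Ndufa4l2 encodes a mitochondrial protein that is induced under hypoxia and lowers complex I activity. It had 21.1, 47.9, 31.1 and 44.9 CPM in the PMMA bone of rats 1 to 4, against 6.40, 8.65, 6.83 and 14.1 CPM in BNED. The lowest library beside the spacer lay above the highest beside the empty defect. Its log2 fold change was 2.01 (SE 0.32, edgeR adjusted p = 0.0174).

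The glucose transporter gene Slc2a1 and the gene of the vasodilator peptide adrenomedullin, Adm, also had groups that did not overlap in bone, without passing edgeR's test over all 16 libraries. Slc2a1 had 30.4, 50.8, 51.6 and 31.2 CPM in PMMA bone, against 12.4, 13.8, 15.2 and 24.6 CPM in BNED. The lowest spacer-side library exceeded the highest empty-side one, and the log2 fold change was 1.31 (SE 0.49, edgeR adjusted p = 0.128). Adm had 9.81, 11.9, 8.26 and 10.3 CPM in PMMA bone, against 4.34, 3.34, 5.36 and 7.37 CPM in BNED. The margin between its groups was under 1 CPM, and its log2 fold change was 0.98 (SE 0.30, edgeR adjusted p = 0.0672). DESeq2 called Adm (adjusted p = 0.0219), and edgeR on the 8 libraries of bone alone called both Adm (0.0338) and Slc2a1 (0.0231). Ankrd37, an ankyrin repeat protein gene known as a HIF target, was at 3.97 ± 1.14 CPM (SD, n = 4) in PMMA bone and 2.57 ± 0.853 CPM in BNED, with overlap (log2 fold change 0.63, edgeR adjusted p = 0.237).

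Hk2, Pfkfb3, Pdk1 and Bnip3 did not pass in bone. Hk2, the hexokinase that traps glucose in the cell, had a log2 fold change of 0.27 (SE 0.45), and Pfkfb3, whose product makes an activator of phosphofructokinase, had 0.14 (SE 0.49). Pdk1, the kinase that keeps pyruvate out of the citrate cycle, had 0.27 (SE 0.25), and Bnip3, a mitophagy receptor, had 0.05 (SE 0.46). Their edgeR adjusted p ran from 0.519 to 0.963, and all but Bnip3 were higher on the spacer side in every rat. With muscle markers as a covariate Bnip3 was at 0.66 (edgeR adjusted p = 0.0847). Egln3, a HIF prolyl hydroxylase that is itself induced by HIF, was the member with a negative value, -0.68 (SE 0.63, edgeR adjusted p = 0.534), and it was lower on the spacer side in every rat. With muscle markers as a covariate its value turned to 0.06 (edgeR adjusted p = 0.937). These markers were at 21525, 31517, 5052 and 3043 CPM in the BNED of rats 1 to 4, against 1482, 9253, 3817 and 6045 CPM in PMMA bone. In rat 4 the markers were thus lower in BNED, where Egln3 was higher. The part of muscle was not tested. Egln3 levels were 12.98, 23.3, 10.6 and 13.7 CPM in PMMA bone, against 28.6, 32.1, 17.3 and 18.8 CPM in BNED, and the groups overlapped.

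In counts, 2 of 10 members rose and 0 fell in bone at an adjusted p under 0.05, where 4.91% of all tested genes were called (3.51% higher, 1.4% lower). Groups did not overlap for 3 members, all higher beside the spacer, against 19.1% of tested genes (12% higher, 7.05% lower). In every rat 7 of 10 members were higher on the spacer side and 1, Egln3, was lower, against 24.4% and 18.5% of tested genes. The 7 include near ties, with Pfkfb3 at 12.73 against 12.71 CPM in rat 1 and Hk2 at 26.4 against 26.2 CPM in rat 2. The members' median log2 fold change was 0.45 and that of all tested genes -0.01.

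The bone calls rested on few libraries. Without the PMMA bone of rat 2, 3 or 4 or the BNED of rat 1 or 3, no gene of the whole table was called. Adjusted p were then 0.0840 to 0.130 for Car9, with log2 fold changes of 1.73 to 2.12, and 0.0516 to 0.0875 for Ndufa4l2. Without the BNED of rat 2 Car9 had adjusted p = 0.0773. Without the PMMA bone of rat 1, whose erythroid markers stood apart, they were 0.00708 for Car9 and 0.000892 for Ndufa4l2. In that setting Adm passed as well (adjusted p = 0.0437), as it did without IM of rat 2 (0.0463), and Slc2a1 passed without IM of rat 1 (0.0452).

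**Figure D1:**
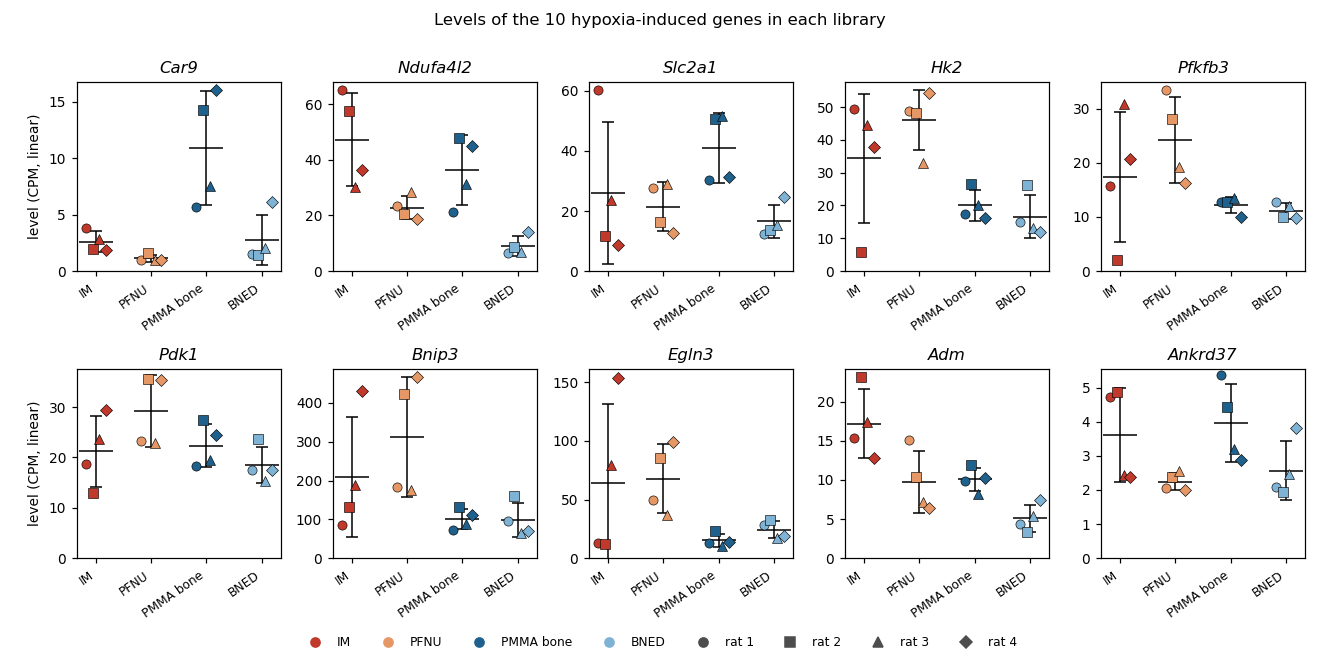
Level of each of the 10 genes (y axis, CPM, linear, each panel with its own scale) in every library by group (x axis), with marker shapes for rats and bars for mean ± SD, cut off at 0 where the SD exceeds the mean. Car9, Ndufa4l2, Slc2a1 and Adm lie higher in PMMA bone than in BNED in all 4 rats, and Egln3 spreads widest in IM, from 11.9 to 154 CPM.

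Several lists of cell type markers differed between the 2 bone groups. Chondrocyte markers, 8 of 9 in the table and none at 0 in any group, summed to 1970, 4585, 7118 and 15489 CPM in the PMMA bone of rats 1 to 4, against 588, 369, 1519 and 7238 CPM in BNED. The BNED library of rat 4, the highest of its group for Car9 at 6.08 CPM, was also the highest for these markers. Pericyte and smooth muscle markers, 7 of 7 in the table and none at 0, summed to 825 to 1788 CPM in PMMA bone and 521 to 718 CPM in BNED, without overlap, beside the rise of Ndufa4l2. Other lists separated the bone groups as well. Osteoclast markers, 3 of 5 in the table, summed to 6980 to 14021 CPM in PMMA bone and 2610 to 5122 CPM in BNED. Endothelial markers summed to 551 to 928 CPM and 459 to 548 CPM. Osteoblast and osteocyte markers, given above, did not overlap either. Neutrophil markers were lower in PMMA bone, at 191 to 543 CPM against 1151 to 1648 CPM, and macrophage markers overlapped. The part of any cell type in these results was not tested. With the erythroid markers as a covariate, log2 fold changes were 1.63 for Car9 and 1.66 for Ndufa4l2 and no gene of the table was called (edgeR adjusted p = 0.454 and 0.319). The erythroid sums of the bone groups overlapped through the PMMA bone of rat 1 alone. This covariate and the side can thus hardly be told apart. With muscle markers as the covariate the log2 fold changes of Car9 and Ndufa4l2 were 1.94 and 1.91, with edgeR adjusted p of 0.0183 and 0.00670. Over all alternatives the adjusted p ran from 0.00127 to 0.454 for Car9 and from 4.49e-06 to 0.319 for Ndufa4l2.

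**Figure D2:**
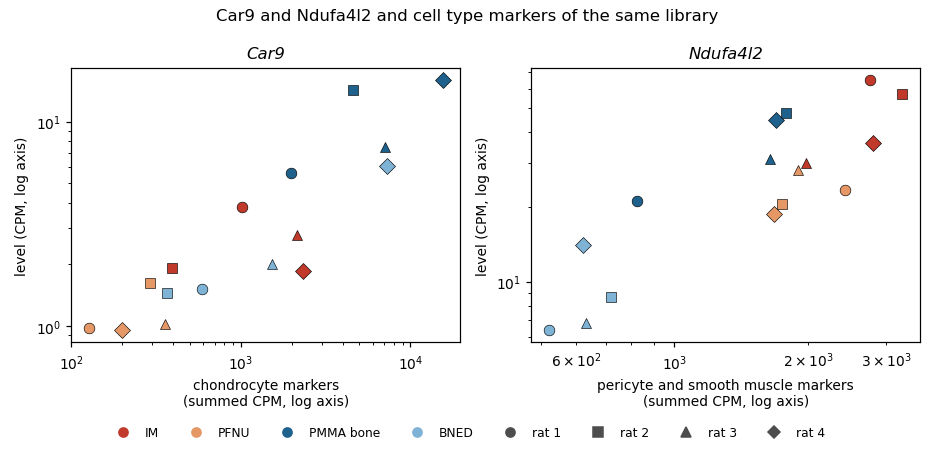
Car9 against the summed chondrocyte markers (left) and Ndufa4l2 against the summed pericyte and smooth muscle markers (right) of the same library, both axes in CPM on log scales, 1 point per library. PMMA bone libraries lie at or above 1970 CPM of chondrocyte markers, and the BNED library with the most Car9, 6.08 CPM, also has the most of these markers in its group.

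The membrane was set against the tissue of the empty defect to see how the spacer's side differs within the defect. No member was called by edgeR in this comparison, in which 0.863% of all tested genes were (0.366% higher, 0.498% lower). At an unadjusted edgeR p under 0.05 there were 4, namely Car9, Ndufa4l2, Adm and Ankrd37, beside 1997 of the 12857 tested genes. DESeq2 called 1, Ndufa4l2 (adjusted p = 0.0441). Car9 had 3.82, 1.92, 2.79 and 1.86 CPM in IM of rats 1 to 4, against 0.973, 1.62, 1.02 and 0.957 CPM in PFNU. The groups did not overlap, yet both were low, at 41 to 199 counts a library, and the log2 fold change was 1.18 (SE 0.48, edgeR adjusted p = 0.247).

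Ndufa4l2 had 65.0, 57.3, 30.1 and 36.3 CPM in IM, against 23.4, 20.7, 28.3 and 18.8 CPM in PFNU. Its groups did not overlap either, with the membrane of rat 3 just above the PFNU of the same rat. The log2 fold change was 1.05 (SE 0.31, edgeR adjusted p = 0.124). Adm had 15.4, 23.2, 17.4 and 12.8 CPM in IM, against 15.1, 10.4, 7.16 and 6.44 CPM in PFNU, and was higher in the membrane in every rat although the groups overlapped. Its log2 fold change was 0.82 (SE 0.29, edgeR adjusted p = 0.193). Ankrd37 had 4.72, 4.87, 2.43 and 2.39 CPM in IM, against 2.06, 2.38, 2.55 and 2.01 CPM in PFNU, with overlap. Its log2 fold change was 0.68 (SE 0.32, edgeR adjusted p = 0.320).

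Chondrocyte markers summed to 1017, 391, 2154 and 2328 CPM in IM of rats 1 to 4, against 127, 293, 358 and 200 CPM in PFNU, without overlap. Within these groups Car9 did not follow the markers. It was lowest, at 1.86 CPM, in the membrane with the most markers, that of rat 4, and highest in the membrane of rat 1. In PFNU Car9 was highest in rat 2 and the markers in rat 3. Over all 16 libraries, after subtracting group means from log2 values, Pearson's r of Car9 with chondrocyte markers was 0.72. Pericyte and smooth muscle markers summed to 1979 to 3267 CPM in IM and 1673 to 2423 CPM in PFNU, with overlap, beside those of Ndufa4l2. The part of these cell types was not tested.

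Single membranes decided the mean of several other members. The membrane of rat 1 had 60.2 CPM of Slc2a1, above the 11.5, 23.7 and 8.75 CPM of the membranes of rats 2 to 4 and the 12.6 to 29.0 CPM of PFNU. The log2 fold change of Slc2a1 was 0.28 (SE 0.49) with that library and -0.55 without it, with edgeR adjusted p of 0.846 and 0.511. The membrane of rat 2 was low in both glycolytic regulators. Hk2 was at 5.79 CPM in it and at 49.4, 44.4 and 38.0 CPM in the membranes of rats 1, 3 and 4, against 32.8 to 54.4 CPM in PFNU. Pfkfb3 was at 1.99 CPM in it and at 15.7, 30.9 and 20.6 CPM in the others, against 16.3 to 33.4 CPM in PFNU. Without that membrane the log2 fold changes, which were -0.42 for Hk2 and -0.49 for Pfkfb3 with it, were -0.07 and -0.11 (edgeR adjusted p = 0.942 and 0.896).

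Bnip3 had 86.0, 131, 189 and 432 CPM in IM of rats 1 to 4, against 183, 424, 176 and 467 CPM in PFNU. Egln3 had 13.1, 11.9, 79.3 and 154 CPM in IM, against 49.4, 85.5, 37.1 and 99.0 CPM in PFNU. Both genes spread by several fold within each group and the groups overlapped. Log2 fold changes were -0.58 (SE 0.47) for Bnip3, -0.07 (SE 0.63) for Egln3 and -0.47 (SE 0.25) for Pdk1, with edgeR adjusted p of 0.610, 0.980 and 0.389. Of the 10 members 2 had groups without overlap, both higher in the membrane, against 7.26% of tested genes (3.96% higher, 3.31% lower). In every rat 3 were higher in the membrane and 0 lower, against 11.4% and 10.4% of tested genes. The median log2 fold change was 0.11 over the members and 0.01 over all tested genes.

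**Figure D3:**
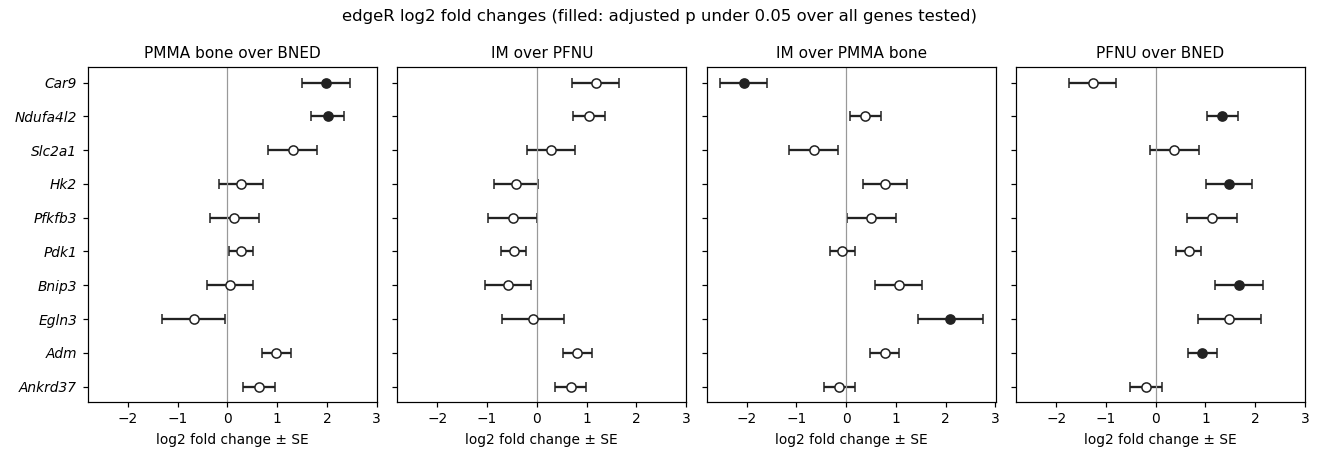
Log2 fold change (x axis) with its standard error for each gene (y axis) in 4 comparisons, from the fit of edgeR over all 16 libraries, with filled points at an adjusted p under 0.05 over all genes. Filled points are Car9 and Ndufa4l2 in PMMA bone over BNED, none in IM over PFNU, Car9 and Egln3 in IM over PMMA bone, and Ndufa4l2, Hk2, Bnip3 and Adm in PFNU over BNED.

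The difference between the spacer's effect in the defect and that in bone was tested directly. No member and no gene of the table passed by edgeR (0%), and DESeq2 called 0 members. At an unadjusted edgeR p under 0.05 there was 1 member, Ndufa4l2, beside 1149 of the 12857 tested genes. Ndufa4l2 had a difference of -0.96 (SE 0.44, edgeR adjusted p = 0.548), its effect being 1.05 in the defect and 2.01 in bone. For Car9 the difference was -0.80 (SE 0.66) and for Slc2a1 -1.03 (SE 0.69), with edgeR adjusted p of 0.759 and 0.702. The effects in defect and bone were thus not shown to differ for any member.

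Defect tissue was also set against the neighbouring bone of the same limb, separately for each side. These comparisons share libraries with those above. In the empty limb 4 of 10 members were higher in PFNU than in BNED and 0 were lower, where 30.2% of tested genes were called (15% higher, 15.2% lower). Bnip3 had 183, 424, 176 and 467 CPM in PFNU of rats 1 to 4, against 96.8, 160, 64.3 and 71.0 CPM in BNED, without overlap (log2 fold change 1.67, SE 0.48, edgeR adjusted p = 0.0166). Hk2 had 48.7, 48.3, 32.8 and 54.4 CPM in PFNU, against 14.9, 26.2, 13.2 and 11.9 CPM in BNED, also without overlap (1.48, SE 0.46, edgeR adjusted p = 0.0248). Ndufa4l2 rose by 1.34 (SE 0.32, edgeR adjusted p = 0.00612), with 18.8 to 28.3 CPM in PFNU and 6.40 to 14.1 CPM in BNED. Adm rose by 0.94 (SE 0.30, edgeR adjusted p = 0.0275), with groups that overlapped, and had adjusted p = 0.0564 with a replicate block for rat.

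Egln3 and Pfkfb3 had groups without overlap as well but did not pass (log2 fold changes 1.48 and 1.13, edgeR adjusted p = 0.0892 and 0.0964). Groups did not overlap for 5 members, all higher in PFNU, against 39.9% of tested genes (18.9% higher, 21% lower). In every rat 6 were higher in PFNU and 0 lower, against 29.5% and 28.2%. Pdk1 had a log2 fold change of 0.66 (edgeR adjusted p = 0.0543). Car9 went the other way, at 1.14 ± 0.318 CPM (SD, n = 4) in PFNU and 2.76 ± 2.23 CPM in BNED (log2 fold change -1.27, SE 0.48, edgeR adjusted p = 0.0565). The members' median was 1.03 and that of all tested genes 0.04.

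Leaving out a library changed several of these calls. Ndufa4l2 passed whichever library was left out (adjusted p = 0.00307 to 0.0251). With erythroid markers as a covariate, which were 494 to 2994 CPM in PFNU and 20790 to 41302 CPM in BNED, none of the 4 passed. Log2 fold changes were then 0.68 for Ndufa4l2, 2.27 for Bnip3, 0.74 for Hk2 and 0.73 for Adm, with edgeR adjusted p of 0.461, 0.127, 0.555 and 0.413. The marker ranges of PFNU and BNED did not overlap, so this covariate and the tissue cannot be told apart. Bnip3 had adjusted p = 0.0550, 0.0522 and 0.0538 without the BNED of rat 3 or 4 or the PFNU of rat 4. Hk2 had 0.0648, 0.0702 and 0.0709 without the BNED of rat 1, 3 or 4, and 0.0521 and 0.0586 without the PFNU of rat 2 or 4. Adm had 0.0561 to 0.104 without the PFNU of rat 1 or 2 or the BNED of rat 1, 2 or 3. Calls were gained for Car9 (0.0343 to 0.0494, without IM of rat 1 or 4, PMMA bone of rat 1 or BNED of rat 1 or 2), for Pdk1 (0.0254 to 0.0495, without IM of rat 2 or 4, PFNU of rat 3 or BNED of rat 2), and for Egln3 and Pfkfb3 (0.0458 and 0.00334, without IM of rat 2).

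In the spacer limb 1 member rose and 1 fell in the membrane relative to the bone beside it, where 22.2% of tested genes were called (11.3% higher, 11% lower). Car9 fell by 2.06 (SE 0.48, edgeR adjusted p = 0.00864), with 1.86 to 3.82 CPM in IM and 5.63 to 15.98 CPM in PMMA bone, and passed whichever library was left out (0.00290 to 0.0285). Egln3 rose by 2.09 (SE 0.65, edgeR adjusted p = 0.0332). Its membranes of rats 3 and 4, at 79.3 and 154 CPM, lay far above the PMMA bone range of 10.6 to 23.3 CPM, and those of rats 1 and 2, at 13.1 and 11.9 CPM, lay within it. With a replicate block for rat, 1 member was called, Car9, and Egln3 had adjusted p = 0.0701. It had 0.171 without IM of rat 4, 0.0597 without IM of rat 3, and 0.0823, 0.0870 and 0.0788 without the PMMA bone of rats 1, 3 and 4. With erythroid markers as a covariate Egln3 had an edgeR adjusted p of 0.114 and Car9 0.0497.

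Of the other members in the spacer limb, Adm had 12.8 to 23.2 CPM in IM and 8.26 to 11.9 CPM in PMMA bone, with no overlap (log2 fold change 0.77, edgeR adjusted p = 0.0700). Groups without overlap were thus 1 higher and 1 lower, against 7.75% and 11.7% of tested genes (19.5% in all). In every rat 1 was higher, Adm, and 1 lower, Car9, against 14.9% and 18.3%. Without IM of rat 2, Hk2 and Pfkfb3 passed as higher in the membrane (1.13 and 0.88, adjusted p = 0.0112 and 0.0285). Without IM of rat 1, Slc2a1 passed as lower (-1.49, adjusted p = 0.0117) and Bnip3 as higher (1.29, adjusted p = 0.0425). The members' median was 0.44 and that of all tested genes 0.03.

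Skeletal muscle markers moved with Bnip3 and Egln3, also with Pdk1, and inversely with Ankrd37. After subtracting group means from log2 values, Pearson's r was 0.88 for Bnip3, 0.83 for Egln3, 0.77 for Pdk1 and -0.81 for Ankrd37. Macrophage markers gave r of -0.80 for Bnip3, -0.77 for Egln3, -0.85 for Pdk1 and 0.46 for Ankrd37, so muscle was not their only close correlate. The part of either cell type was not tested. In IM the order of the rats from low to high was 1, 2, 3 and 4 for Bnip3 and for the summed muscle markers, at 19372, 38290, 178051 and 276147 CPM. Egln3 had rats 1 and 2 in the reverse order there. In PFNU the order was 3, 1, 2 and 4 for Bnip3, Egln3 and the markers, at 49297, 71754, 145923 and 156968 CPM. In PMMA bone the order was 1, 3, 4 and 2 for Bnip3 and the markers, at 1482, 3817, 6045 and 9253 CPM. Egln3 had rats 1 and 3 in the reverse order there. In BNED, with markers at 21525, 31517, 5052 and 3043 CPM in rats 1 to 4, rats 1 and 2 were the higher pair for Bnip3, Egln3 and the markers alike. The markers did not overlap between PFNU and BNED, nor between IM and PMMA bone. In both comparisons a covariate of these markers and the tissue cannot be told apart. With the markers as a covariate the log2 fold change of Bnip3 in PFNU over BNED was 0.16 (edgeR adjusted p = 0.805, over all alternatives 0.00207 to 0.805). That of Egln3 in IM over PMMA bone was -1.06 (edgeR adjusted p = 0.389, over all alternatives 0.00450 to 0.389), and that of Pdk1 in PFNU over BNED was 0.01. Ndufa4l2 and Adm still passed in PFNU over BNED with this covariate, at 1.80 and 1.40 (edgeR adjusted p = 0.0127 and 0.0331). Hk2 in that comparison and Car9 in IM over PMMA bone did not, at 0.97 and -1.47 (edgeR adjusted p = 0.298 and 0.223), and Bnip3 in IM over PMMA bone turned to -1.07 (0.104).

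**Figure D4:**
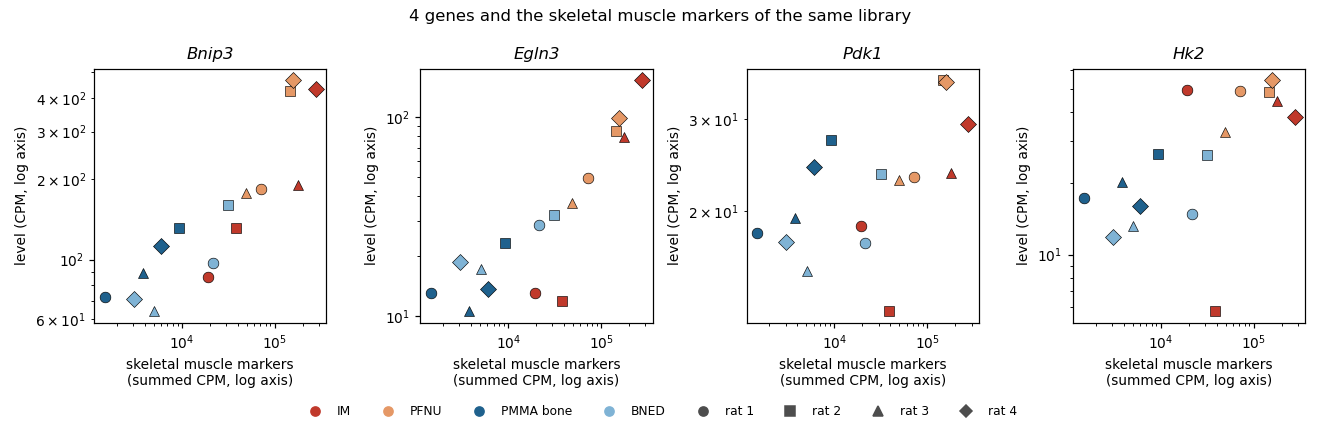
Levels of Bnip3, Egln3, Pdk1 and Hk2 (y axis, CPM, log) against the summed skeletal muscle markers of the same library (x axis, CPM, log), 1 point per library. Bnip3 and Egln3 reach 432 and 154 CPM in the membrane with the most muscle marker counts, 276147 CPM, and Hk2 is lowest, at 5.79 CPM, in the membrane of rat 2.

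Across the 4 groups the members fell into different orders by mean level. Car9 was highest in PMMA bone (10.9 ± 5.05 CPM, SD, n = 4), followed by BNED (2.76 ± 2.23), IM (2.60 ± 0.919) and PFNU (1.14 ± 0.318), and of these neighbours only IM and PFNU did not overlap. Ndufa4l2 ran from IM (47.2 ± 16.6 CPM) over PMMA bone (36.2 ± 12.5) and PFNU (22.8 ± 4.14) to BNED (8.99 ± 3.52), and only the last pair did not overlap. Adm ran from IM (17.2 ± 4.43 CPM) over PMMA bone (10.1 ± 1.49) and PFNU (9.77 ± 3.95) to BNED (5.10 ± 1.72), and only the first pair did not overlap.

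For the other 7 members every neighbouring pair of groups overlapped. Slc2a1 and Ankrd37 were highest in PMMA bone by mean, at 41.0 ± 11.8 and 3.97 ± 1.14 CPM. Hk2, Pfkfb3, Pdk1, Bnip3 and Egln3 were highest in PFNU, at 46.1 ± 9.23, 24.2 ± 7.92, 29.3 ± 7.12, 313 ± 155 and 67.8 ± 29.3 CPM. BNED was lowest for Slc2a1, Hk2, Pfkfb3, Pdk1 and Bnip3, PMMA bone for Egln3 and PFNU for Ankrd37. The spread within a group was widest in IM for Egln3, where the SD of 67.3 CPM exceeded the mean of 64.5 CPM, and for Slc2a1, at 26.0 ± 23.7 CPM.

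Genes whose levels were most like each member were looked up over the 16 libraries after subtracting group means from log2 CPM, by Pearson's r as a description. The libraries share rats and tissue makeup. The gene most like Car9 was Acan, the aggrecan core protein of cartilage (r = 0.88), followed by PCOLCE2 (0.85) and Rasd1 (0.84). Those most like Ndufa4l2 were Cilp2 (0.95), Aldoc, an aldolase of glycolysis (0.91), and Sertad4 (0.90). For Slc2a1 they were Snai1, a transcription factor of mesenchymal transition, Sdc4 and Slc41a2 (0.96 to 0.97), for Hk2 Pxn and Slc5a6 (0.97 each), and for Pfkfb3 Fam222b, Snrk and Tob2 (0.95 to 0.97). Egln3 was most like Dnajc27, Pink1, a kinase of mitophagy, and Dynll2 (0.98 each), and Bnip3 most like Ivd, Rangrf and Ndufa10 (0.98 each). The values for Pdk1 (Tspyl1, Slain2 and B3galt2) were 0.95, those for Ankrd37 (Cast, Trmt13 and Ccdc112) 0.91 to 0.95, and those for Adm (Mitd1, Abcg3l4 and Aida) 0.84 to 0.85.

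Other genes of the pathway were taken from 3 textbook lists outside the members. The oxygen-sensing list held 7 tested genes of 9, the glycolysis list 15 of 15, and a list of other HIF targets 23 of 27. In bone beside the spacer none of the oxygen-sensing genes was called by edgeR, and 1 was by DESeq2. At an unadjusted edgeR p under 0.05 there was 1, beside 3130 of the 12857 tested genes. Hif1a, the main inducible alpha subunit, had 171, 221, 261 and 220 CPM in PMMA bone, against 92.6, 94.9, 122 and 173 CPM in BNED (log2 fold change 0.85, SE 0.29, edgeR adjusted p = 0.0927). It was higher beside the spacer in all 4 rats, and the PMMA bone of rat 1 lay just under the BNED of rat 4. Epas1, the alpha subunit prominent in endothelium, had 0.72 (edgeR adjusted p = 0.290), and Vhl, which marks alpha subunits for destruction, had 0.17 (edgeR adjusted p = 0.589).

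Of the 23 other HIF targets 3 rose in bone beside the spacer and none fell, with a median log2 fold change of 0.73 beside 0.45 for the members and -0.01 for all tested genes. Among them were P4ha2, a collagen prolyl hydroxylase (1.40, SE 0.29, edgeR adjusted p = 0.0230), and Bhlhe40, a transcriptional repressor (0.86, SE 0.21, 0.0341). P4ha2 had 57.1, 110, 104 and 106 CPM in PMMA bone, against 28.5, 28.2, 39.8 and 46.4 CPM in BNED. Neither gene passed without the PMMA bone of rat 2, 3 or 4 or the BNED of rat 1, 2 or 3 (adjusted p = 0.0502 to 0.131), and without the PMMA bone of rat 1 there were 7 higher and 1 lower, the lower one being Bnip3l (-1.19, adjusted p = 0.00323). DESeq2 and the libraries of the 2 groups alone each gave 8 higher and 0 lower, and the erythroid covariate gave 0. Groups did not overlap for 11 of the 23 and all 11 were higher, against 12% of tested genes, and 16 were higher in every rat, against 24.4%. Vegfa, the vessel growth factor, had 0.55 (edgeR adjusted p = 0.468). Of 15 glycolysis genes none was called by edgeR and 2 were by DESeq2. At an unadjusted edgeR p under 0.05 there were 3, beside 3130 of the 12857 tested genes. The glycolysis median was 0.01, with Pgk1 at -0.02 and Ldha at -0.17. The median was 0.43 with 1 gene called with the muscle covariate, and 0.25 without the BNED of rat 2.

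Between membrane and PFNU 1 gene of these lists was called. Mif, a cytokine gene that HIF can induce, had 69.3, 101, 46.7 and 52.7 CPM in IM of rats 1 to 4, against 34.9, 32.5, 30.6 and 28.01 CPM in PFNU, without overlap (log2 fold change 1.10, SE 0.21, edgeR adjusted p = 0.0299). It had adjusted p = 0.0682 with a replicate block for rat. Without IM of rat 1 or 2, PFNU of rat 2, 3 or 4, or BNED of rat 1 or 3 its adjusted p was above 0.05 and at most 0.127. No oxygen-sensing gene was called (0 at an unadjusted p under 0.05, 0 by DESeq2), with Hif1a at 0.49, Epas1 at -0.21 and Vhl at -0.25. No glycolysis gene was either (4 at an unadjusted p under 0.05, 0 by DESeq2). Of the 12857 tested genes, 1997 had an unadjusted edgeR p under 0.05. Of the 15 glycolysis genes, 14 had positive values (median 0.48, with Pgk1 at 0.25 and Ldha at 0.23). Without IM of rat 4, the library with the most muscle marker counts, the median was -0.07. Vegfa had a log2 fold change of -0.86 (edgeR adjusted p = 0.375).

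Glycolytic enzymes differed between defect tissue and bone. In IM over PMMA bone 8 of 15 rose and 1 fell (median 1.90), where 11.3% of tested genes were higher and 11% lower. In PFNU over BNED 8 rose and 1 fell (median 1.63), where 15% were higher and 15.2% lower. In the spacer limb Aldoa rose by 3.86, Gapdh by 3.28, Tpi1 by 2.76, Ldha, which makes lactate, by 2.51 and Pgk1 by 1.90 (edgeR adjusted p = 0.00311 to 0.00663). In the empty limb Ldha rose by 2.11, Tpi1 by 2.36, Pkm by 2.197, Pgk1 by 1.63 and the lactate exporter Slc16a3 by 2.18 (edgeR adjusted p = 0.00577 to 0.00928). Hk1, the hexokinase of most tissues, fell by 0.55 and 0.77 (edgeR adjusted p = 0.0307 and 0.00387). Aldoa had 2502, 3648, 11614 and 23548 CPM in IM of rats 1 to 4, the order of the skeletal muscle markers in these libraries. With those markers as a covariate none of the 15 was called in either comparison, and the medians were 0.14 and 0.42. With erythroid markers as a covariate 6 rose and 1 fell in IM over PMMA bone (median 1.87), and none was called in PFNU over BNED (median 1.94). Neither muscle nor erythroid markers overlapped between the groups of either comparison, so covariate and tissue cannot be told apart here.

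Calls among oxygen-sensing genes and other HIF targets went both ways between defect tissue and bone. In PFNU over BNED 1 of 7 oxygen-sensing genes rose and 0 fell, and of 23 other HIF targets 3 rose and 3 fell. Of all tested genes 15% were higher and 15.2% lower there. In IM over PMMA bone 1 of the 7 rose and 2 fell, and 1 of the 23 rose and 3 fell. Of all tested genes 11.3% were higher and 11% lower in that comparison. In PFNU over BNED Epas1 rose by 1.24 (edgeR adjusted p = 0.0332, and 0.0602 to 0.0899 without any of PFNU 1, 2 and 4 or BNED 1, 3 and 4). Among other HIF targets Bhlhe40 rose by 1.13 and Fam162a by 0.73. Tfrc, the transferrin receptor, fell by 1.80, Bnip3l, the mitophagy receptor of red cell maturation, by 1.36, and the collagen lysyl hydroxylase Plod2 by 1.23 (edgeR adjusted p = 0.00137 to 0.0468 for these genes). Erythroid markers were 494 to 2994 CPM in PFNU and 20790 to 41302 CPM in BNED beside the fall of Tfrc and Bnip3l. With these markers as a covariate no gene of either list was called, with Tfrc at -0.85, Bnip3l at 0.10 and Plod2 at -1.79. With muscle markers none was lower, Plod2 being at -0.03, and Epas1 did not pass (0.47, edgeR adjusted p = 0.587). Plod2 passed in 5 of 16 fits that left out 1 library (adjusted p up to 0.126), Tfrc in 15 (0.0536 without the PFNU of rat 1) and Bnip3l, Bhlhe40 and Fam162a in all 16. In IM over PMMA bone Arnt rose by 0.45, Arnt2 fell by 1.09 and Vhl by 0.55, Bhlhe40 rose by 0.73, and Tfrc, Plod2 and Car12 fell by 2.37, 1.40 and 3.03 (edgeR adjusted p = 0.00764 to 0.0473). Leaving out 1 library gave 0 to 2 higher and 0 to 2 lower oxygen-sensing genes in that comparison, and 0 to 2 higher and 1 to 3 lower other targets. Among those 16 fits Tfrc passed in all 16, Bhlhe40 in 14, Car12 in 12, Arnt in 11, Plod2 in 9, Vhl in 6 and Arnt2 in 5. With the muscle covariate, and with the libraries of the 2 groups alone, no oxygen-sensing gene was called, and their median of 0.30 turned to -0.33 with the muscle covariate. Of the other targets the muscle covariate left 1 higher and 0 lower, and the 2 groups alone 0 higher and 1 lower. In both comparisons of defect tissue with bone, neither muscle nor erythroid markers overlapped between groups. Covariate and tissue cannot be told apart there.

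**Figure D5:**
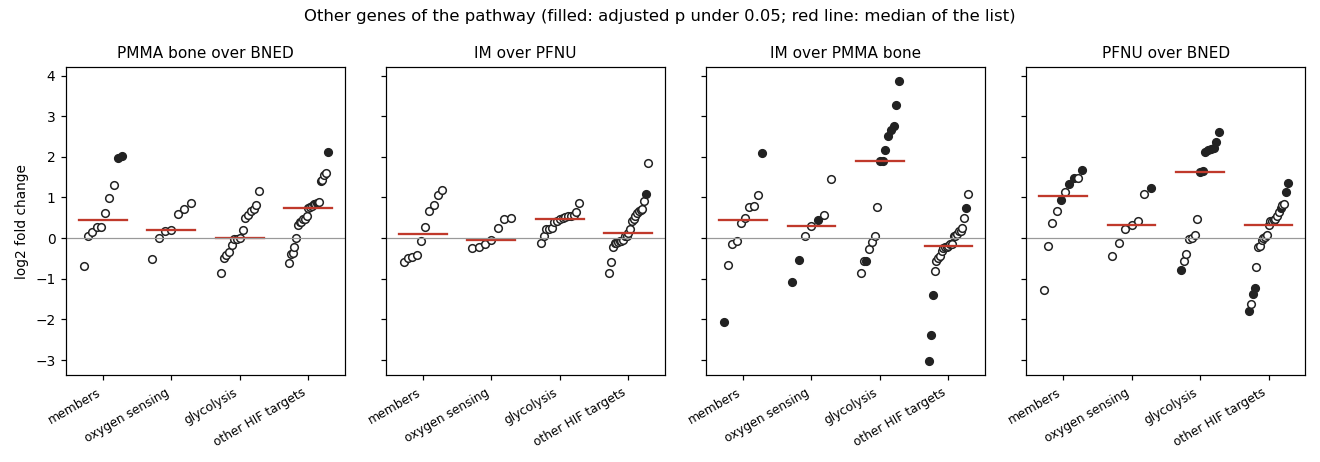
Log2 fold changes (y axis) of the 10 members and of 3 other lists of the pathway (x axis) in 4 comparisons, 1 point per gene, filled at an edgeR adjusted p under 0.05, with a red line at each list's median. In PMMA bone over BNED the median of the other HIF targets is 0.73 and that of glycolysis 0.01, and the glycolysis medians between defect tissue and bone are 1.90 and 1.63.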

How the data were processed

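Whole-number counts per gene symbol were deposited for 16 libraries, without normalization. Per the labels, these were stranded poly-A TruSeq libraries amplified over 12 PCR cycles and sequenced paired-end over 100. Per the submitters' processing notes, FastQC 0.11.3, TopHat2 2.0.13, Bowtie2 2.2.1, DESeq2 and build rn5 were used. The counting program, annotation and strand setting are not given in the sources used here, so overlapping and antisense genes cannot be told apart. Every group and rat came from a sample's own label.

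Groups were compared with edgeR 4.0.16 in R 4.3.3 (TMM, filterByExpr, quasi-likelihood F-test, group means over all 16 libraries), with Benjamini-Hochberg adjustment over all 12857 genes and calls at 0.05. The SE is the log2 fold change divided by the square root of F. Likeness used log2 CPM with a prior count of 2 and genes of at least 1 CPM. Alternatives were RLE size factors, DESeq2 1.42.0, no filter, a replicate block for rat, 2 groups alone, muscle or erythroid markers as a covariate, and leaving out each library. The scripts were tested on simulated data. The members and lists were chosen with earlier results of these data known. Named genes are the members, 7 set genes of which Egln1 is not analysed here, and up to 4 called genes per list, comparison and direction, of which some are not reported here.

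Same-numbered libraries come from the same rat, per the labels, and the correlations of their deviations from group means ran from -0.345 to 0.496. No replicates agreed within sampling noise (chi-square per degree of freedom of at least 75.6). No molecular identifiers are recorded, so total counts speak to counting error alone.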

Additional observations from a re-analysis of the deposited data

Results flagged for a closer look

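Among 40 sets of 4 libraries, the 10 genes in 4 groups, 2 held a library far from the other 3, and chance alone flags about 1 in 20 sets. Car9 in the BNED library of rat 4 was at 6.08 CPM, against 1.44 to 2.00 CPM in the other 3, and without it the log2 fold change of PMMA bone over BNED was 2.71 (edgeR adjusted p = 0.0209). Car9 in the PFNU library of rat 2 was at 1.62 CPM, against 0.957 to 1.02 CPM in the other 3.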

How the results depend on the processing

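Of the 5 comparisons, the number of members called was 0 in IM over PFNU, 2 in PMMA bone over BNED, 0 in the difference between them, 2 in IM over PMMA bone and 4 in PFNU over BNED. RLE size factors and the absence of a filter left all 5 numbers as they were. DESeq2 gave 1 member in IM over PFNU, 3 in PMMA bone over BNED, 3 in IM over PMMA bone (Adm gained in both), 7 in PFNU over BNED and 0 in the difference. The 2 groups alone gave 4 in PMMA bone over BNED, 1 in IM over PMMA bone and 7 in PFNU over BNED. The replicate block for rat gave 1 in IM over PMMA bone and 3 in PFNU over BNED, and it changed no other call of a member than Egln3 and Adm in these. The muscle covariate gave 0 in IM over PMMA bone and 2 in PFNU over BNED, and reversed Egln3 in IM over PMMA bone to -1.06. The erythroid covariate gave 0 in PMMA bone over BNED and in PFNU over BNED. In IM over PMMA bone it left Car9 at an edgeR adjusted p of 0.0497 and Egln3 at 0.114. Leaving out 1 library gave 0 to 3, 1 to 4 and 1 to 7 members in PMMA bone over BNED, IM over PMMA bone and PFNU over BNED, and 0 in the other comparisons. For most of these settings the share of all tested genes called is not given here, so these member counts cannot be read against it. Other HIF targets called higher in PMMA bone over BNED also went from 3 to 8 with DESeq2 and with the 2 groups alone. The cause of the changes between settings was not tested. In PMMA bone over BNED erythroid markers overlapped through the PMMA bone of rat 1 alone. Neither muscle nor erythroid markers overlapped between groups in IM over PMMA bone or PFNU over BNED. Covariate and tissue cannot be told apart there. With Car9 at 41 to 199 counts in IM and PFNU, counting error adds to the spread between rats there.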
